A study of Homo sapiens with 48 samples.

Results

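Forkhead transcription factors are DNA-binding proteins that share the winged-helix fold called the forkhead domain. The 32 genes described here (FOXA2, FOXA3, FOXB1, FOXC1, FOXC2, FOXD1 to FOXD4, FOXE1, FOXF1, FOXF2, FOXH1, FOXI1, FOXI3, FOXJ1 to FOXJ3, FOXK1, FOXK2, FOXL1, FOXL2, FOXN2 to FOXN4, FOXO1, FOXO3, FOXP1, FOXP2, FOXP4, FOXQ1 and FOXS1) were taken by name from the 35535 genes of the deposited count table, and each matched 1 row. The list was chosen with earlier results of these data known. Several forkhead factors, among them the FOXA proteins, can bind their sites in closed chromatin and open it. FOXO proteins are held in the cytoplasm by phosphorylation through AKT, and many other members act in a few embryonic tissues and are silent in most adult cells. Genes of the last kind often carry the histone mark H3K27me3, which the methyltransferase EZH2 writes. That mark was not measured here.

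RNA was sequenced from 8 cultured lines of human bladder cancer: 639V, HT1197, HT1376, KU1919, TCCSUP, T24, SW780 and VMCUB. Cells of each line were given CPI-0209, an EZH2 inhibitor, at 250 nM for 4 days, or DMSO, the solvent control, with 3 libraries of each (48 in all). The question of the design is what the inhibitor changes in each line. Each group is an established line, and the labels give different media for different lines, so differences between lines cannot be told apart from differences between media. The labels do not say whether the 3 libraries of a group were grown apart, and the p-values therefore describe library-to-library spread only, which may be technical.

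The libraries held 26481418 to 50916911 counts. Keratin 8 and keratin 18, which mark epithelial cells, averaged at least 124 CPM (counts scaled to library size) in the DMSO libraries of every line. The adhesion proteins CDH1 and EPCAM averaged 3.68 and 6.21 CPM in T24 and 0.731 and 0.936 CPM in 639V with DMSO, and CDH1 averaged at least 54.5 CPM in the other 6 lines. EPCAM averaged 3.15 CPM in TCCSUP with DMSO and at least 35.2 CPM in the other 5. PTPRC, a leukocyte marker, averaged 21.5 CPM with CPI-0209 and 28.1 CPM with DMSO in TCCSUP, and under 1 CPM in every group of the other 7 lines.

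The 32 forkhead genes were called higher with CPI-0209 far more often than lower. They were chosen with earlier results of these data known, so their shares beside all genes describe this list only. A gene was called where edgeR's quasi-likelihood test within a line gave a Benjamini-Hochberg adjusted p under 0.05 over all genes tested there. Of 195 tests of a forkhead gene in a line, 88 (45.1%) were called higher and 10 (5.13%) lower, against 18.8% and 13.8% of the 128302 tests of all genes. At least 2-fold higher calls numbered 44 among the forkhead tests, against 7.83% of all tests, and no forkhead gene was called 2-fold lower in any line, against 0.434% of all tests. The other 61 tests were not made because the gene's counts were too low in that line. In 24 of the 195 tests the gene passed this filter in all 3 CPI-0209 libraries and not in all 3 DMSO libraries, so a high treated level could bring it into the test. Of these 24 tests 18 were called higher, each at least 2-fold, and the other 6, among them FOXD4 in HT1197 and SW780, were not called. The 18 were FOXC2 in HT1197, FOXA2, FOXA3, FOXI3 and FOXN4 in HT1376, FOXF1 and FOXN4 in KU1919, and FOXA3, FOXF1 and FOXS1 in SW780. The rest were FOXF1, FOXF2 and FOXQ1 in 639V, FOXA2, FOXD3 and FOXF2 in TCCSUP, and FOXI1 and FOXL1 in VMCUB. Over all genes 7337 tests entered this way, and their share called was not computed. The 18 calls are thus no result about forkhead genes. Among the 160 tests whose DMSO libraries passed the filter by themselves, 70 (43.8%) were called higher and 10 (6.25%) lower, against 16.8% and 15% of all such tests. Of these 160 tests 26 (16.2%) were called at least 2-fold higher, against 4.98% of all such tests. All 3 CPI-0209 libraries lay above all 3 DMSO libraries in 98 of the 195 tests (50.3%) and below them in 23 (11.8%), against 24.4% and 23.9% of the tests of all genes; 20 of the 98 were among the 24.

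In SW780 22 of 29 tested forkhead genes were called higher and 1 lower, against 30.8% and 30.3% of all genes tested. Scaling by library totals alone shifted log2 fold changes in SW780 by 0.201, and 24 were then called higher and 0 lower. HT1376 had 15 of 26 called higher, against 23.7% of all genes, and none lower, against 16% (1 at an unadjusted p under 0.05 in edgeR and 1 called by DESeq2). TCCSUP had 11 of 22 called higher and 3 lower, against 25.7% and 23.0% of all genes. These 3 lines differed in the background of changed genes, and in each the share of forkhead genes called higher was larger than that background. In 639V 11 of 24 were called higher and 1 lower, against 22.1% and 17.1% of all genes. VMCUB had 10 of 23 called higher and 1 lower, against 16.4% and 11%. The VMCUB count of higher calls fell to 4 without DMSO replicate 1 or without CPI-0209 replicate 1, and to 6 without CPI-0209 replicate 2 or 3.

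KU1919 had 9 of 29 called higher and 2 lower, against 9.3% and 2.4% of all genes. Its higher calls numbered 5 without DMSO replicate 1, and its lower calls ranged over 0 to 5 as each library was left out in turn: 0 without any of the 3 DMSO libraries, 1 without CPI-0209 replicate 2 or 3, and 5 without CPI-0209 replicate 1. HT1197 had 7 of 19 called higher and 2 lower, against 11.8% and 7.8%. Scaling by library totals alone left HT1197 with 7 higher and 0 lower, and higher calls numbered 4 without DMSO replicate 3 or CPI-0209 replicate 2. T24 had the fewest, with 3 of 23 called higher against 9.37% of all genes, and 5 without CPI-0209 replicate 3. No forkhead gene was called lower in T24 by edgeR, where 0.93% of all genes were (0 at an unadjusted p under 0.05 and 0 by DESeq2). The median log2 fold change of the tested forkhead genes lay between 0.09 in T24 and 0.66 in TCCSUP, and that of all genes between -0.01 and 0.04. These shares and medians include genes that passed the filter only through the CPI-0209 libraries. Where the DMSO libraries passed by themselves, the share called higher ran from 15% in T24 (3 of 20), against 7.63% of all such genes, to 76% in SW780 (19 of 25), against 29.1%.

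**Figure D1:**
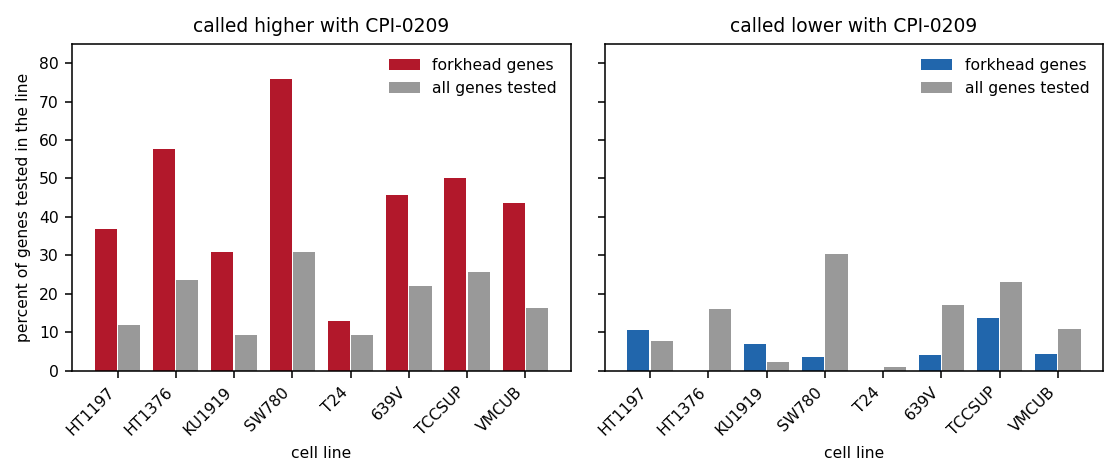
Percent of tested genes called in each line (edgeR adjusted p under 0.05), with higher calls in the left panel and lower calls in the right; coloured bars are the forkhead genes and grey bars all genes tested. The forkhead share called higher runs from 13.0% in T24 (3 of 23, near the 9.37% of all genes) to 75.9% in SW780 and lies above that of all genes in each line. The share called lower lies above it in HT1197 (10.5%) and KU1919 (6.9%), on 2 genes in each, and below it in the other 6 lines. Genes that passed the filter only through the CPI-0209 libraries are included.

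Forkhead genes differed in how widely they were expressed. With a split at 1 CPM chosen after seeing the data, 12 forkhead genes averaged at least that in all 16 groups: FOXD1, FOXD2, FOXJ2, FOXJ3, FOXK1, FOXK2, FOXN2, FOXN3, FOXO1, FOXO3, FOXP1 and FOXP4. Their 96 tests gave 39 higher and 7 lower calls, 3 of them at least 2-fold higher, and a median log2 fold change of 0.11. In all 96 the DMSO libraries passed the filter by themselves. Of all genes' tests of that kind 16.8% were called higher, 15% lower and 4.98% at least 2-fold higher. The share among all genes with 1 CPM in every group was not computed. Another 17 genes reached 1 CPM in some groups. A rise with CPI-0209 can itself bring a gene to 1 CPM or past the filter, as in 19 of their 82 tests, so large rises are partly built into this class and its sizes are not set against those of the first. In the 55 of their tests where the DMSO libraries passed the filter by themselves, 31 were called higher, 23 of them at least 2-fold, and 3 lower. The shares of all such tests are those just given, without a split by level, so they do not match this class in level. FOXD3, FOXD4 and FOXH1 reached 1 CPM in no group, and 1 of their 17 tests was called, FOXD3 in TCCSUP, which passed the filter only through the CPI-0209 libraries.

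**Figure D2:**
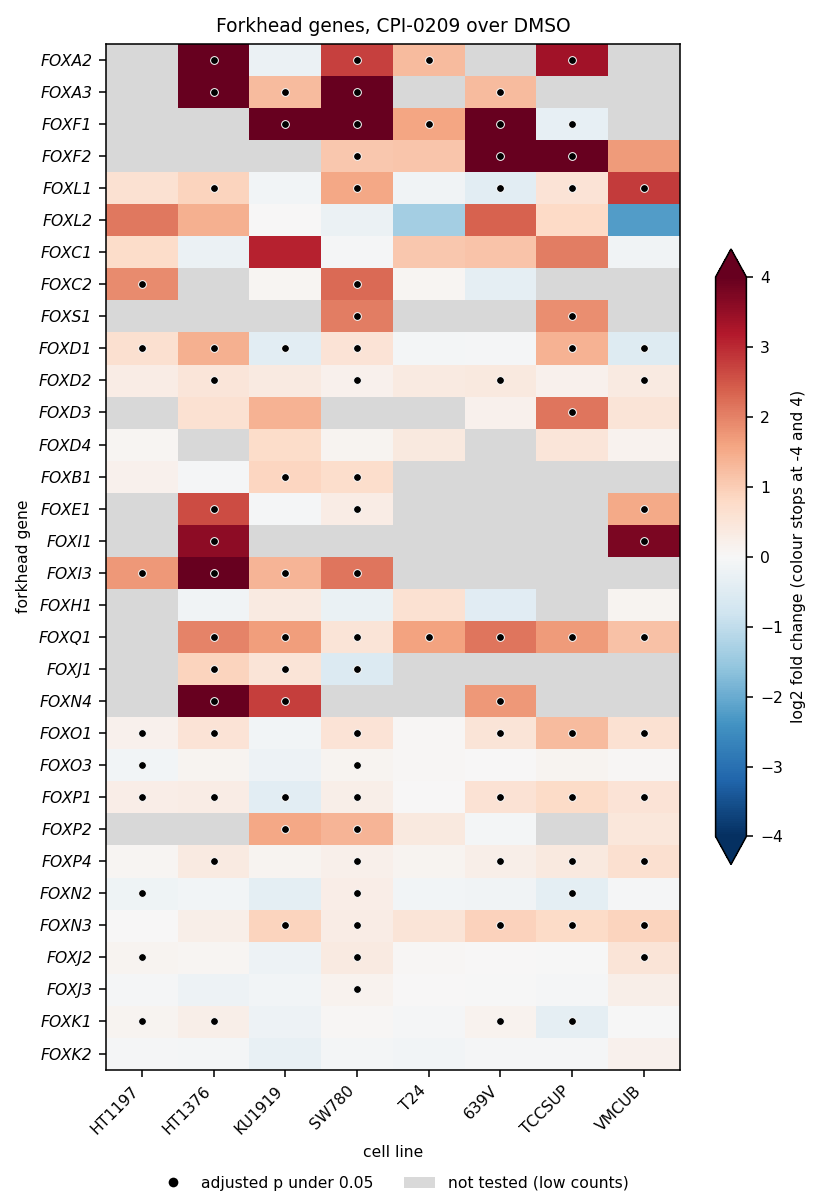
Log2 fold change, CPI-0209 over DMSO, of each forkhead gene (down the page) in each line (across); dots mark an adjusted p under 0.05, grey marks untested pairs, and the colour stops at -4 and 4. The darkest cells are fitted values of genes with few or no DMSO counts, while the 12 widely expressed genes stay between -0.53 and 1.41.

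FOXQ1, which in mice controls hair structure and gastric mucin, was the forkhead gene called higher in the most lines, in all 7 where it could be tested. It passed the filter in 639V only through the CPI-0209 libraries, so a rise there could itself bring it into the test. In SW780, where it was highest, it had 135, 121 and 131 CPM with CPI-0209, against 95.1, 83.4 and 90.3 CPM with DMSO. In VMCUB it had 50.2, 59.9 and 58.1 CPM with CPI-0209, against 26.3, 27.3 and 24 CPM with DMSO. In both lines all treated libraries lay above all control libraries, with log2 fold changes of 0.50 ± 0.05 (SE, adjusted p = 4.16e-07) and 1.17 ± 0.09 (adjusted p = 2.64e-04). HT1376 had 12.5, 15.4 and 11.4 CPM with CPI-0209, against 3.61, 3.49 and 2.97 CPM with DMSO. TCCSUP had 19.2, 16.2 and 18.0 CPM with CPI-0209, against 4.90, 5.65 and 6.17 CPM with DMSO. T24 had 13.0, 12.9 and 15.2 CPM with CPI-0209, against 5.50, 4.90 and 3.17 CPM with DMSO. The groups were apart in these lines too, and the log2 fold changes were 1.99 in HT1376, 1.71 in TCCSUP and 1.60 in T24. KU1919 had 6.49, 4.54 and 4.77 CPM with CPI-0209, against 1.53, 1.66 and 1.75 CPM with DMSO, a log2 fold change of 1.68. In 639V the change of 2.13 rested on 20, 19 and 18 counts with CPI-0209, against 5, 3 and 2 counts with DMSO. HT1197 held at most 9 counts in any library and was not tested.

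A fit of 16 sums, 1 for each line and treatment, tested the change shared by the lines. It called 6 of 28 tested forkhead genes higher, against 7.31% of all genes tested, and 0 lower, against 4.41% (0 at an unadjusted p under 0.05 in edgeR and 0 by DESeq2). FOXQ1 rose with a log2 fold change of 1.39 ± 0.19 (SE, adjusted p = 0.0137) and FOXI3, a factor of placode, tooth and ear development, with 2.08 ± 0.43 (adjusted p = 0.0236). FOXQ1 kept its call whichever line or replicate number was left out. FOXI3 lost its call in no such fit that tested it, but it may not have passed the filter in each. With DMSO FOXI3 averaged 0.0271 CPM in HT1376 and less in VMCUB, T24, TCCSUP and 639V. The filter here takes sums of both treatments, so a high treated level can help bring such a gene in. How often it did was not computed for this fit. FOXN3, a repressor tied to the DNA damage checkpoint, rose by 0.55 ± 0.11 (adjusted p = 0.0223), and its adjusted p was 0.0519 without T24. FOXD2 rose by 0.31 ± 0.07 (adjusted p = 0.0281) and was not called without HT1376, T24, 639V, VMCUB or replicate 3. FOXP2 rose by 0.85 ± 0.21 (adjusted p = 0.0325) and was not called without HT1197, HT1376, KU1919, SW780, T24, TCCSUP, or replicate 1 or 3. FOXP4 rose by 0.24 ± 0.06 (adjusted p = 0.0384) and was not called without HT1376, SW780, T24, 639V, TCCSUP, VMCUB, or replicate 2 or 3. Without 1 line the adjusted p of the last 3 reached at most 0.0878, and the calls numbered 3 without HT1376, SW780, T24 or replicate 3, in place of 6.

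RefSeq promoter windows (GRCh38.p14) were found for 24 of the 32 genes, 35 windows in all, and are described for the base composition upstream of these genes, whether or not they were called. The 250 bases before the start held a median of 25 CG pairs in forkhead windows, against 11 in the 35116 windows of all genes. The forkhead motif TGTTTAC, searched on both strands (GTAAACA on the other), was present in 1 of 35 forkhead windows (2.86%, at FOXP1), against 2.98% of all windows. The sequences given are those of the 4 genes with 1 window that were called higher in the most lines: FOXQ1 at chr6:1311848-1312097 on the plus strand, FOXO1 at chr13:40666642-40666891 on the minus strand, FOXN3 at chr14:89619166-89619415 on the minus strand and FOXP4 at chr6:41546131-41546380 on the plus strand. Capitals mark CG pairs, of which the windows hold 29, 27, 33 and 21.
FOXQ1: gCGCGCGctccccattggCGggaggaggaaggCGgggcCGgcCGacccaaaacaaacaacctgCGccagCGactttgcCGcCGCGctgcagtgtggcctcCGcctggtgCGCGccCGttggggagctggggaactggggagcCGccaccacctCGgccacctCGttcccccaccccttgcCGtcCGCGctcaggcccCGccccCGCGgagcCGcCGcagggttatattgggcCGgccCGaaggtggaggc
FOXO1: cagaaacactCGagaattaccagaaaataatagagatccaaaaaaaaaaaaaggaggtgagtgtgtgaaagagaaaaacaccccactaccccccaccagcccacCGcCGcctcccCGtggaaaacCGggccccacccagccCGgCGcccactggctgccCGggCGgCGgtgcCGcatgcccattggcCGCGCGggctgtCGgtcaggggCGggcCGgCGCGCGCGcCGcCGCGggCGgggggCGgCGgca
FOXN3: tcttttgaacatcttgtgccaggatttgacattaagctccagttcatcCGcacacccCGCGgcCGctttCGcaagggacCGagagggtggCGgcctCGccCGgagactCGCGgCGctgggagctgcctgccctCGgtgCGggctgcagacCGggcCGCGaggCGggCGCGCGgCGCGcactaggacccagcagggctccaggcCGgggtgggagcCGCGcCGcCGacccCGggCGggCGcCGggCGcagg
FOXP4: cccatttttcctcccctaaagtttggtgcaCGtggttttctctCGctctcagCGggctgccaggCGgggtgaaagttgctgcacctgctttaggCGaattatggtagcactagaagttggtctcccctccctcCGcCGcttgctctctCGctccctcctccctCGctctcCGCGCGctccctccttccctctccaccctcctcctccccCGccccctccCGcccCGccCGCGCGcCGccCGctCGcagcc

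FOXO1 and FOXO3 stop the cell cycle and raise stress defence when AKT is inactive. FOXO1 was called higher in 6 of 8 lines. TCCSUP showed the largest change, with 15.2, 14.1 and 13.6 CPM with CPI-0209, against 5.83, 6.38 and 6.03 CPM with DMSO, a log2 fold change of 1.27 ± 0.08 (SE, adjusted p = 3.78e-08). The next changes were 0.60 in VMCUB, 0.56 in HT1376, 0.56 in SW780 and 0.52 in 639V. HT1197, the line with the highest level, had 40.5, 38.3 and 39.0 CPM with CPI-0209, against 34.7, 35.4 and 36.0 CPM with DMSO, a log2 fold change of 0.17 ± 0.04 (adjusted p = 0.00923). The groups did not overlap in any of these 6 lines, while in KU1919 (-0.11, adjusted p = 0.722) and T24 (0.06, adjusted p = 0.892) they did. The HT1197 call was lost without CPI-0209 replicate 1 (adjusted p = 0.0578) and the VMCUB call without DMSO replicate 1 or CPI-0209 replicate 1 or 2 (adjusted p = 0.0854 to 0.0966). FOXO3 changed by at most 0.12 in size where called: it fell by 0.12 in HT1197 (adjusted p = 0.0233) and rose by 0.11 in SW780 (adjusted p = 0.0315), and both calls were lost on leaving out single libraries: DMSO replicate 1 or 2 or CPI-0209 replicate 1 or 3 in HT1197 (adjusted p = 0.0675 to 0.108), and DMSO replicate 2 or 3 or CPI-0209 replicate 3 in SW780 (0.0573 to 0.167).

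The FOXP proteins bind DNA as dimers and mostly repress transcription. FOXP1 was called higher in 6 lines and lower in KU1919. In TCCSUP it had 59.8, 62.8 and 60.0 CPM with CPI-0209, against 33.5, 39.3 and 36.5 CPM with DMSO, a log2 fold change of 0.78 ± 0.06 (SE, adjusted p = 3.97e-07). In KU1919 it had 42.4, 43.2 and 43.2 CPM with CPI-0209, against 57.9, 57.9 and 56.2 CPM with DMSO, where it fell by 0.42 ± 0.07 (adjusted p = 0.0109). The libraries of the 2 groups were apart in both lines, in opposite directions. The KU1919 call was lost without any one of the DMSO libraries (adjusted p = 0.0639 to 0.0799). In the other 5 lines FOXP1 rose by 0.23 in SW780 and 0.58 in 639V, and by 0.26 in HT1197, 0.31 in HT1376 and 0.54 in VMCUB. The last 3 were lost on leaving out single libraries: DMSO replicate 2 or 3 or CPI-0209 replicate 2 or 3 in HT1197 (adjusted p up to 0.168), DMSO replicate 2 or CPI-0209 replicate 1 or 3 in HT1376 (up to 0.11), and DMSO replicate 1 or CPI-0209 replicate 1 or 3 in VMCUB (up to 0.0724).

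FOXP4 rose in 5 lines, all by less than 2-fold. 639V, with the highest level, had 117, 122 and 118 CPM with CPI-0209, against 104, 99.0 and 102 CPM with DMSO, a log2 fold change of 0.22. The changes were 0.36 in HT1376, 0.19 in SW780, 0.39 in TCCSUP and 0.64 in VMCUB, and the last call was lost without DMSO replicate 1 or any of the 3 CPI-0209 libraries (adjusted p = 0.0684 to 0.0851). FOXP2, known from language development, was low throughout. It rose in KU1919, to 1.53, 1.41 and 2.05 CPM with CPI-0209, against 0.612, 0.575 and 0.528 CPM with DMSO (log2 fold change 1.54, adjusted p = 0.00428). In SW780 it had 1.18, 1.20 and 0.970 CPM with CPI-0209, against 0.375, 0.271 and 0.627 CPM with DMSO (1.36, adjusted p = 1.86e-04). FOXP2 was not called in the other 3 lines where it was tested.

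Of the FOXN genes, FOXN3 was called higher in 5 lines. TCCSUP, where it was highest, had 176, 177 and 158 CPM with CPI-0209, against 98.0, 111 and 98.6 CPM with DMSO, a log2 fold change of 0.77 ± 0.06 (SE, adjusted p = 5.52e-07). 639V had 25.5, 23.5 and 23.3 CPM with CPI-0209, against 14.2, 11.5 and 12.7 CPM with DMSO, a change of 0.91 ± 0.07 (adjusted p = 2.4e-07). All 3 treated libraries stood above the controls in these lines and in SW780 (0.29), VMCUB (0.88) and KU1919 (0.88). The KU1919 call was lost without any of the DMSO libraries or without CPI-0209 replicate 2 or 3 (adjusted p = 0.111 to 0.149). FOXN4, a factor of retinal and spinal cord progenitors, had at most 0.540 CPM in any DMSO library and rose in 3 lines. In 639V it had 1.44, 1.45 and 1.59 CPM with CPI-0209, against 0.540, 0.404 and 0.402 CPM with DMSO, and in KU1919 1.02, 0.706 and 1.5 CPM, against 0.109, 0.207 and 0.165 CPM. In HT1376 79 counts were found with CPI-0209 and 1 with DMSO, a ratio of 91.5 (95% counting interval 15.9 to 3660). In KU1919 and HT1376 FOXN4 passed the filter only through the CPI-0209 libraries. FOXN2 fell in TCCSUP, to 9.84, 9.85 and 10.1 CPM with CPI-0209, against 13.5, 13.6 and 12.9 CPM with DMSO (log2 fold change -0.39, adjusted p = 4.88e-04), and rose in SW780 by 0.26. Its fall of 0.17 in HT1197 was lost without DMSO replicate 1 or 2 or any of the CPI-0209 libraries (adjusted p = 0.0708 to 0.168).

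FOXA2 and FOXA3 are pioneer factors of the liver and gut. FOXA2 was near 0 in most lines with DMSO, highest in KU1919 and second in T24. In T24 it had 23.7, 23.9 and 26.6 CPM with CPI-0209, against 10.1, 10.7 and 9.94 CPM with DMSO, a log2 fold change of 1.28 ± 0.08 (SE, adjusted p = 2.05e-04). In SW780 it had 3.88, 3.51 and 5.01 CPM with CPI-0209, against 0.664, 0.639 and 0.526 CPM with DMSO, a change of 2.74 ± 0.18 (adjusted p = 1.65e-10). HT1376 had 1.81, 1.53 and 1.88 CPM with CPI-0209, against 0.0502, 0.0563 and 0.0275 CPM with DMSO, which were 2, 2 and 1 counts (5.20 ± 0.32). TCCSUP rose as well, with 27, 10 and 23 counts against 2, 2 and 1. In HT1376 and TCCSUP FOXA2 passed the filter only through the CPI-0209 libraries, so a rise could itself bring it into the test. HT1197, 639V and VMCUB held at most 6 counts in any library, had overlapping groups and were not tested. In KU1919 FOXA2 had 36.8, 31.7 and 35.1 CPM with CPI-0209, against 40.4, 39.8 and 40.1 CPM with DMSO. It was lower in each library but not called (-0.22, adjusted p = 0.115), and was called lower there without CPI-0209 replicate 1.

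FOXA3 rose in 4 lines, of which SW780 and HT1376 passed the filter only through the CPI-0209 libraries. SW780 had 1.14, 0.777 and 0.916 CPM with CPI-0209, against 0, 0.0774 and 0.0202 CPM with DMSO (log2 fold change 4.56, adjusted p = 6.78e-08). HT1376 held 72 counts with CPI-0209 and 1 with DMSO, a ratio of 83.4 (95% counting interval 14.5 to 3340). KU1919 had 3.17, 2.29 and 2.48 CPM with CPI-0209, against 1.20, 0.759 and 1.35 CPM with DMSO (1.27), a call lost without DMSO replicate 1 (adjusted p = 0.052). In 639V the change was 1.25 (adjusted p = 0.0051), on 26, 44 and 33 counts against 11, 15 and 8. FOXA1, the third of these factors and a gene of luminal urothelium, was not among the 32. It fell in T24 (-0.45), 639V (-0.79) and TCCSUP (-0.30), rose in HT1376 (1.41) and VMCUB (0.64), and was at most 0.16 apart in KU1919 and SW780, with no call there; HT1197 was not tested.

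FOXF1, FOXF2 and FOXL1 act in the mesenchyme around gut, lung and bladder epithelium, where Hedgehog ligands from the epithelium induce them. FOXF1 rose in 4 lines and fell in the line where it was highest. In TCCSUP, its highest line, it fell to 65.6, 66.4 and 64.2 CPM with CPI-0209, against 81.2, 87.7 and 84.8 CPM with DMSO (log2 fold change -0.34 ± 0.05, adjusted p = 1.07e-04). In T24 it had 15.5, 14.9 and 17.4 CPM with CPI-0209, against 5.35, 5.87 and 4.97 CPM with DMSO (1.57 ± 0.10, adjusted p = 2.05e-04). SW780 had 7.39, 6.31 and 7.60 CPM with CPI-0209, against 0.116, 0.213 and 0.222 CPM with DMSO (5.17 ± 0.18, adjusted p = 5.19e-14). Each of these 3 lines had groups that did not overlap. KU1919 held 214 counts with CPI-0209 and 3 with DMSO, a ratio of 78.3 (95% counting interval 26.4 to 383). 639V held 190 counts with CPI-0209 and 1 with DMSO, a ratio of 150 (26.6 to 5950). In SW780, KU1919 and 639V FOXF1 passed the filter only through the CPI-0209 libraries. HT1197, HT1376 and VMCUB held at most 5 counts in any library and were not tested.

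FOXL1 rose in 4 lines and fell in 639V. SW780 had 8.77, 8.90 and 8.61 CPM with CPI-0209, against 3.64, 2.65 and 2.61 CPM with DMSO (log2 fold change 1.56, adjusted p = 7.65e-10), and HT1376 had 6.28, 6.11 and 5.67 CPM, against 3.21, 3.21 and 3.60 CPM (0.88). TCCSUP had 26.2, 26.7 and 24.7 CPM with CPI-0209, against 19.4, 18.7 and 16.7 CPM with DMSO (0.54). VMCUB had 1.69, 1.69 and 1.59 CPM with CPI-0209, against 0.159, 0.541 and 0.0488 CPM with DMSO (2.80), a call lost without DMSO replicate 1 (adjusted p = 0.0539) or CPI-0209 replicate 1 (0.0519). 639V had 8.80, 9.26 and 8.72 CPM with CPI-0209, against 11.9, 12.3 and 11.2 CPM with DMSO, where it fell by 0.41 (adjusted p = 1.56e-04). T24, with the highest level, changed by -0.15 with no call. The summed level of 9 fibroblast markers moved with treatment as well. It was 11900 to 12400 CPM with CPI-0209 and 8180 to 9530 CPM with DMSO in TCCSUP, where all 9 markers were at 1 CPM or more, and 19.3 to 24.3 CPM and 5.52 to 6.92 CPM in T24, where 2 were. It was higher with CPI-0209 in 7 lines without overlap and lower in HT1376, and its part in the change of FOXF1 and FOXL1 was not tested.

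FOXF2 counts lay on multiples of a single number, so its precision is less than its counts imply. Of its 24 nonzero counts up to 300, 22 lay within 0.51 counts of a multiple of 8.874, and 20 of 22 such FOXC2 counts lay on a step of 6.5. Of 11036 genes with at least 15 such counts, 4 had 90% or more of them on a step of at least 2.5. Over all nonzero libraries, 30 of 33 FOXF2 counts lay on a step of 8.87, and 28 of 34 FOXC2 counts on one of 6.48. FOXF2 had 4.01, 5.83 and 7.49 CPM with CPI-0209 in SW780, against 3.06, 2.92 and 2.14 CPM with DMSO (log2 fold change 1.08, adjusted p = 0.0116), a call lost without DMSO replicate 2 (0.083) or CPI-0209 replicate 2 (0.0508). In T24, its highest line, the groups were apart with no call (1.12, adjusted p = 0.0537), and DESeq2 called it higher (adjusted p = 0.00285). VMCUB gave no call either (1.71, adjusted p = 0.0526), and DESeq2 called it higher (adjusted p = 0.0434). In TCCSUP and 639V FOXF2 had no count with DMSO. Against a floor of 3 steps over the group (26.6 counts), it was at least 6.37-fold higher in TCCSUP, with 89, 71 and 27 counts, and at least 2.87-fold higher in 639V, with 18, 35 and 44 counts. The TCCSUP call was lost without CPI-0209 replicate 1 (adjusted p = 0.0822). With counts divided by the step, an alternative chosen after seeing the data, all 3 lines stayed called, and FOXF2 passed in the fit over lines (log2 fold change 1.75, adjusted p = 0.0404) where it had not with counts as deposited (adjusted p = 0.0684). FOXC2, a factor of lymphatic vessels, rose in HT1197, with 1.06, 1.37 and 0.9 CPM with CPI-0209 against 0.355, 0.174 and 0.379 CPM with DMSO (1.88), and in SW780, with 2.65, 1.76 and 1.98 CPM against 0.751, 0.368 and 0.263 CPM (2.25). In HT1197 FOXC2 passed the filter only through the CPI-0209 libraries. With counts divided by the step, its edgeR change was 1.81 ± 0.62 in HT1197 (SE, adjusted p = 0.0499) and 2.22 ± 0.46 in SW780 (adjusted p = 4.06e-04). Its T24 level, the highest, was 33.2, 38.4 and 20.9 CPM with CPI-0209, against 35.3, 22.0 and 30.9 CPM with DMSO, and the groups overlapped.

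**Figure D3:**
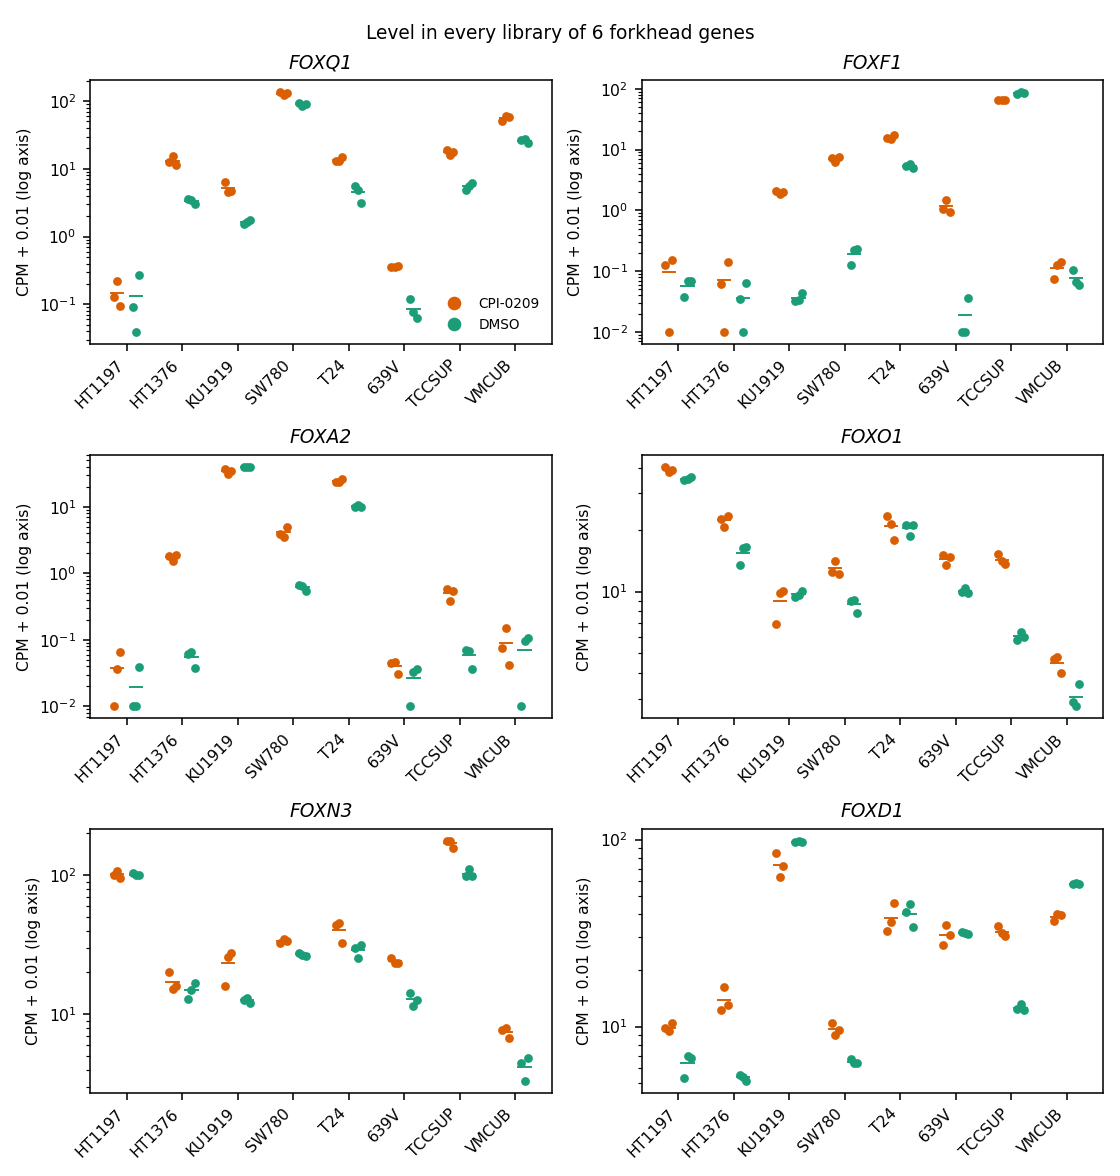
CPM + 0.01 (log axis) of 6 forkhead genes in every library, with CPI-0209 left of DMSO in each line; points are libraries and bars their means. FOXF1 with CPI-0209 lies above DMSO in KU1919, SW780, T24 and 639V and below it in TCCSUP, and FOXQ1 lies above it in 7 lines.

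FOXF1, FOXC2 and FOXL1 sit together on chromosome 16 (chr16:86510527-86582160, hg38, 72 kb from the first gene's start to the last gene's end). All 3 were called higher in SW780. In KU1919 and T24 FOXF1 alone of the 3 was called. In 639V FOXF1 rose and FOXL1 fell, and in TCCSUP FOXF1 fell and FOXL1 rose, so these neighbours were called in opposite directions in 2 lines. In SW780, KU1919 and 639V FOXF1 passed the filter only through the CPI-0209 libraries, so its rise could itself bring it into the test there. The opposite calls in TCCSUP are free of that limit. FOXQ1, FOXF2 and FOXC1 sit on chromosome 6 (chr6:1312440-1613897, hg38, 301 kb). FOXQ1 and FOXF2 were both higher in SW780, 639V and TCCSUP, and FOXC1 was called in no line. Both genes in 639V and FOXF2 in TCCSUP passed the filter only through the CPI-0209 libraries, so SW780 alone is free of that limit. Of 10 coding neighbours of both clusters, 9 were tested in the fit over lines and 1 was called higher, against 7.31% of all genes: DUSP22, a phosphatase gene, rose by 0.36 (adjusted p = 0.0306). That call was lost without HT1197, HT1376, SW780, T24, 639V or TCCSUP (adjusted p = 0.0517 to 0.0697) and without replicate 3. In SW780, 5 of 9 tested neighbours were called higher and 2 lower, against 30.8% and 30.3% of all genes. There IRF8 rose by 3.48 on 0.439 ± 0.103 CPM with CPI-0209 and 0.0354 ± 0.0391 CPM with DMSO (SD, n = 3 each). GMDS fell there by 1.01, to 21.5 CPM from 42.4 CPM, and MAP1LC3B by 0.33. In KU1919 IRF8 rose by 1.57, to 17.6 CPM from 5.92 CPM.

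FOXI1 specifies ionocytes and the acid-secreting cells of the kidney. In HT1376 it had 8.80, 8.77 and 9.73 CPM with CPI-0209, against 0.978, 0.620 and 0.715 CPM with DMSO (log2 fold change 3.57 ± 0.15, adjusted p = 1.45e-07). In VMCUB it had 1.02, 1.12 and 0.843 CPM with CPI-0209, against 0.0318, 0.114 and 0.0732 CPM with DMSO (3.75 ± 0.35, adjusted p = 5.74e-04). The treated libraries were far above the controls in both, and FOXI1 was too low to test in the other 6 lines. In VMCUB FOXI1 passed the filter only through the CPI-0209 libraries. FOXI3 rose in 4 lines. KU1919 had 4.48, 6.15 and 6.44 CPM with CPI-0209, against 2.29, 2.28 and 2.11 CPM with DMSO (1.35), and HT1197 had 2.08, 1.86 and 2.31 CPM, against 0.546, 0.639 and 0.700 CPM (1.74). SW780 had 1.36, 1.86 and 1.65 CPM with CPI-0209, against 0.347, 0.387 and 0.344 CPM with DMSO (2.14). These were all the lines in which FOXI3 could be tested apart from HT1376, which held 101 counts with CPI-0209 and 3 with DMSO, a ratio of 39.0 (95% counting interval 13.0 to 192). In HT1376 FOXI3 passed the filter only through the CPI-0209 libraries.

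FOXE1, a thyroid and palate factor, rose in HT1376 to 2.02, 2.27 and 1.88 CPM with CPI-0209, against 0.326, 0.394 and 0.302 CPM with DMSO (log2 fold change 2.61, adjusted p = 8.29e-06). It rose in VMCUB to 7.47, 8.31 and 8.69 CPM with CPI-0209, against 2.32, 2.53 and 3.83 CPM with DMSO (1.53, adjusted p = 0.00199). SW780, its highest line, had 7.09, 7.67 and 7.38 CPM with CPI-0209, against 6.15, 5.92 and 5.74 CPM with DMSO (0.29). KU1919, second in level, had overlapping groups and no call (-0.04, adjusted p = 0.914). FOXS1 rose in TCCSUP to 2.19, 2.04 and 2.31 CPM with CPI-0209, against 0.571, 0.588 and 0.685 CPM with DMSO (1.85, adjusted p = 3.79e-06), and in SW780 on 13, 12 and 11 counts against 2, 4 and 1 (2.04). FOXB1, a factor of the hypothalamus, rose in SW780 (0.71) and KU1919 (0.87). The KU1919 call of FOXB1 was lost without any of the 3 DMSO libraries (adjusted p = 0.0563 to 0.0685).

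FOXD1, which marks the stroma of the developing kidney, moved in both directions. It rose in TCCSUP to 34.6, 31.6 and 30.4 CPM with CPI-0209, against 12.4, 13.2 and 12.2 CPM with DMSO (log2 fold change 1.39 ± 0.07, adjusted p = 3.12e-09). In HT1376 it had 12.3, 16.3 and 13.1 CPM with CPI-0209, against 5.49, 5.38 and 5.14 CPM with DMSO (1.41 ± 0.11, adjusted p = 9.02e-06). Smaller rises were called in HT1197 (0.65) and SW780 (0.55). It fell in VMCUB, to 36.9, 39.9 and 39.3 CPM with CPI-0209, against 57.6, 58.8 and 58.1 CPM with DMSO (-0.53 ± 0.06, adjusted p = 0.00122). KU1919, the highest line, had 84.3, 63.2 and 72.6 CPM with CPI-0209, against 97.3, 98.5 and 96.5 CPM with DMSO (-0.42). None of these 6 lines had overlapping groups. The KU1919 call was lost without any DMSO library or without CPI-0209 replicate 2 or 3 (adjusted p = 0.0692 to 0.14). FOXD2 rose in HT1376 (0.48), SW780 (0.18), 639V (0.40) and VMCUB (0.37), and all but the 639V call were lost on leaving out single libraries. In 639V FOXD2 had 7.21, 7.67 and 7.61 CPM with CPI-0209, against 5.96, 5.64 and 5.37 CPM with DMSO. The losses had adjusted p of 0.0575 to 0.167 in HT1376 (any library but DMSO replicate 3), 0.057 to 0.193 in SW780 (DMSO replicate 2 or 3, CPI-0209 replicate 3), and 0.106 to 0.132 in VMCUB (DMSO replicate 1 or any CPI-0209 library). FOXD3, a neural crest factor, rose in TCCSUP on 16, 12 and 25 counts with CPI-0209 against 4, 5 and 2 with DMSO (2.13, adjusted p = 0.00148).

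FOXJ1 switches on the genes of motile cilia. It rose in HT1376 to 3.49, 4.01 and 3.33 CPM with CPI-0209, against 2.13, 2.20 and 1.62 CPM with DMSO (log2 fold change 0.89, adjusted p = 0.00152). KU1919, its highest line, had 12.4, 9.68 and 9.85 CPM with CPI-0209, against 6.64, 7.93 and 7.5 CPM with DMSO (0.53, adjusted p = 0.0285). In SW780 it had 0.646, 0.692 and 0.862 CPM with CPI-0209, against 1.21, 1.20 and 0.809 CPM with DMSO (-0.56, adjusted p = 0.0326). This was the only one of the 98 calls in which the groups overlapped. It was lost without DMSO replicate 1 or 2 or CPI-0209 replicate 1 or 2 (adjusted p = 0.092 to 0.118) and with scaling by library totals. The KU1919 call was lost without any DMSO library or CPI-0209 replicate 2 or 3 (adjusted p = 0.0544 to 0.133). FOXJ2 rose in SW780 to 43.1, 44.1 and 46.7 CPM with CPI-0209, against 35.1, 34.9 and 32.0 CPM with DMSO (0.37). Its rises in HT1197 (0.10) and VMCUB (0.53) were lost on leaving out any of 5 and of 4 single libraries (adjusted p up to 0.159 without DMSO replicate 2 in HT1197, and up to 0.0939 without CPI-0209 replicate 1 in VMCUB). FOXJ3 rose by 0.14 in SW780, a call lost without DMSO replicate 1 or 3 or CPI-0209 replicate 2 (adjusted p = 0.0616 to 0.0961). In HT1376 its log2 fold change of -0.20 just missed the threshold (adjusted p = 0.0553) and passed with DESeq2 (-0.21, adjusted p = 0.0261).

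FOXK1 and FOXK2 are widely expressed repressors of autophagy genes. FOXK1 fell in TCCSUP to 68.4, 68.2 and 67.7 CPM with CPI-0209, against 96.8, 90.1 and 80.8 CPM with DMSO (log2 fold change -0.35, adjusted p = 6.25e-04). It rose in HT1197 (0.12), HT1376 (0.24) and 639V (0.14), and each of these 3 calls was lost on leaving out any of 4 libraries: replicates 2 and 3 of both groups in HT1197 (adjusted p = 0.121 to 0.186), DMSO replicate 1 or 2 or CPI-0209 replicate 1 or 3 in HT1376 (0.0739 to 0.159), and DMSO replicate 2 or 3 or CPI-0209 replicate 1 or 3 in 639V (0.0863 to 0.17). FOXK2 was called in none of the 8 lines by edgeR within a line, with log2 fold changes between -0.31 and 0.16. In KU1919 it was called lower in the fit of all 48 libraries (-0.31, adjusted p = 0.0026) and without CPI-0209 replicate 1 (-0.20). In SW780 its direction depended on the scaling: it was called lower with DESeq2 (-0.10, adjusted p = 0.0404), with RLE factors and with the replicate block, and higher with library totals (0.11, adjusted p = 0.0206). FOXH1, the partner of SMAD proteins in Nodal signalling, had at most 0.670 CPM in any library and was called in none of 6 lines. FOXD4 has near-identical copies elsewhere in the genome, so its counts are uncertain; it was called in none of 6 lines.

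FOXC1 and FOXL2, a factor of the eye's anterior chamber and the factor of ovarian granulosa cells, had no edgeR call in any of the 8 lines with all libraries kept, and libraries of the same group disagreed. FOXC1 had 1, 15 and 525 counts in HT1197 with CPI-0209, against 110, 205 and 1 with DMSO. FOXL2 had 258, 222 and 234 counts there with CPI-0209, against 0, 152 and 0 with DMSO. Libraries of 1 group thus held as few as 0 or 1 and as many as 525 counts. The median dispersion within groups was 0.842 for FOXC1 and 0.740 for FOXL2, ranks 23 and 34 from the highest of 18196 genes, against a median of 0.0252 over those genes. FOXC1 in KU1919 had a log2 fold change of 3.09 ± 0.95 with no call (adjusted p = 0.0848), and was called without CPI-0209 replicate 1 (3.60, adjusted p = 0.00352). It was also called in TCCSUP with the replicate block (2.32, adjusted p = 0.0436). FOXL2 was called on leaving out 1 library in 4 lines: higher in HT1197 without DMSO replicate 2 (adjusted p = 2.01e-08), in HT1376 without CPI-0209 replicate 3 (0.00235) and in KU1919 without CPI-0209 replicate 2 (0.0303), and lower in VMCUB without DMSO replicate 3 (0.0186). Single libraries thus decided whether these 2 genes were called.

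**Figure D4:**
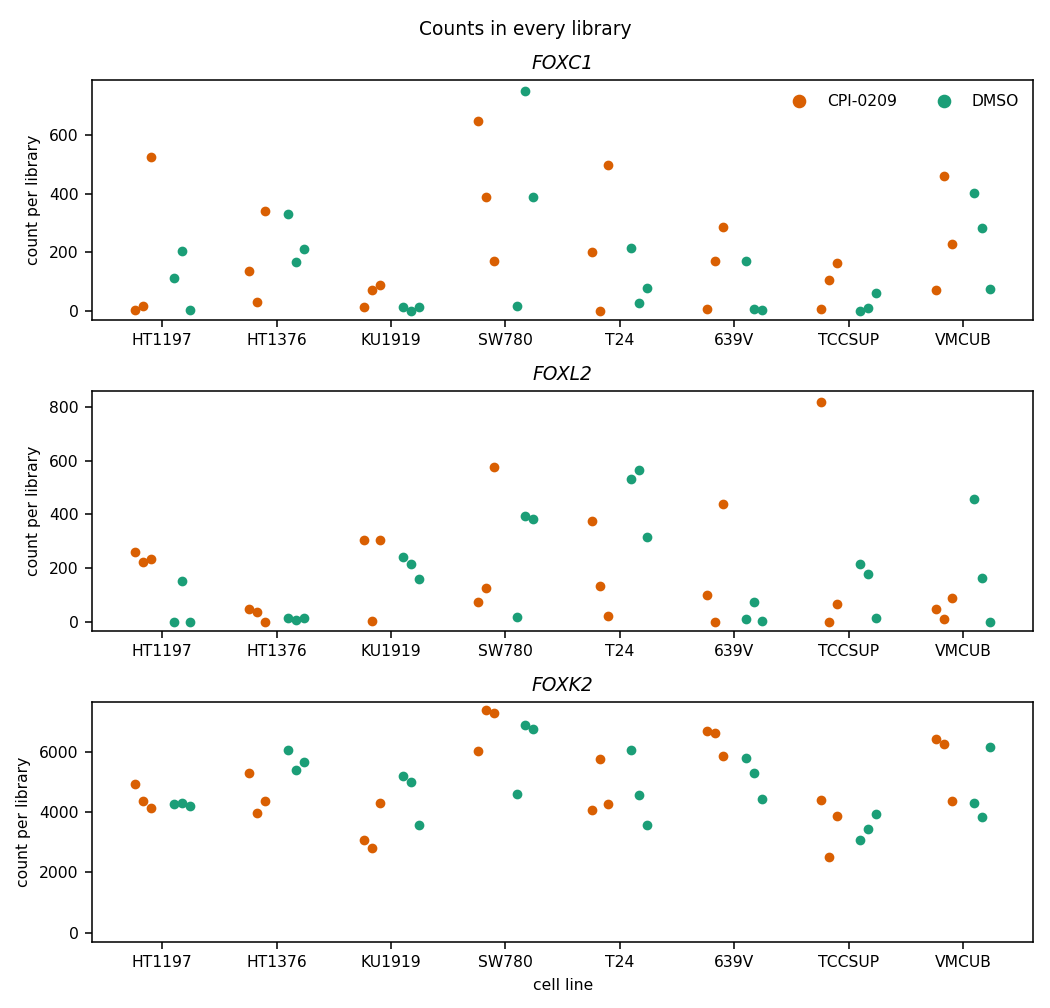
Counts of FOXC1, FOXL2 and, for contrast, FOXK2 in every library (linear axes), with CPI-0209 left of DMSO in each line; each point is 1 library. FOXC1 and FOXL2 scatter within most groups, as in HT1197, where FOXC1 has 1, 15 and 525 counts with CPI-0209, while FOXK2 has 2527 to 7407 counts in every library.

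The response differed between lines for 23 of the 32 forkhead genes (edgeR F test of 7 line by treatment terms, adjusted p under 0.05), against 58.7% of all genes tested. This test took in every line, also those where a gene's counts were too low for a test within the line. The smallest adjusted p belonged to FOXF1 (3.1e-20), FOXA2 (1.09e-15), FOXD1 (4.55e-15) and FOXL1 (6.9e-14), all of which had a line with a negative and a line with a positive log2 fold change. Without replicate 1 in every group the count was 14. FOXD2, whose log2 fold change was positive in all 8 lines (0.16 to 0.48), gave 0.409. A p above the threshold does not show that its response was equal across lines.

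With DMSO, 31 of 32 forkhead genes differed in level between lines, against 97.5% of all genes tested, and FOXL2 did not pass (adjusted p = 0.0509). FOXC1 passed at 0.0437, and not without replicate 2 (0.412) or replicate 3. Per kilobase of exon, FOXK2 had the highest median level over lines (12.1 CPM per kb), followed by FOXP4 (9.78), FOXO3 (9.04), FOXJ3 (9.00) and FOXD1 (8.45), and FOXI1 the lowest (0.00435). In its highest line FOXQ1 reached 38.8 CPM per kb (SW780), FOXD1 37.2 (KU1919), FOXO3 33.3 (HT1197), FOXF1 24.1 (TCCSUP), FOXA2 15.4 (KU1919), FOXL1 13.2 (T24) and FOXC2 10.1 (T24). The second line of FOXD1 had 22.2 CPM per kb (VMCUB), that of FOXO3 19.7 (HT1376) and that of FOXL1 6.53 (KU1919). For these 7 genes the DMSO libraries of the highest line did not overlap those of the next line. The highest line overlapped the next for FOXC1, FOXD3, FOXF2, FOXH1, FOXK1, FOXL2, FOXN2 and FOXN3. Each line was also set against the mean log2 level of the other 7 lines, which lines near 0 pull down. KU1919 had the most forkhead genes at least 2-fold above that mean (12 of 32, against 18.3% of all genes), among them FOXA2, FOXA3, FOXD1, FOXI3 and FOXJ1. TCCSUP had the fewest, 5 of 32, near the 19.1% of all genes: FOXF1, FOXL1, FOXN3, FOXQ1 and FOXS1. FOXQ1 averaged 5.57 CPM in TCCSUP, below SW780 (89.6 CPM) and VMCUB (25.9 CPM), so such a gene need not be highest there. These fits depend on the prior count where a gene was at 0 in other lines.

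**Figure D5:**
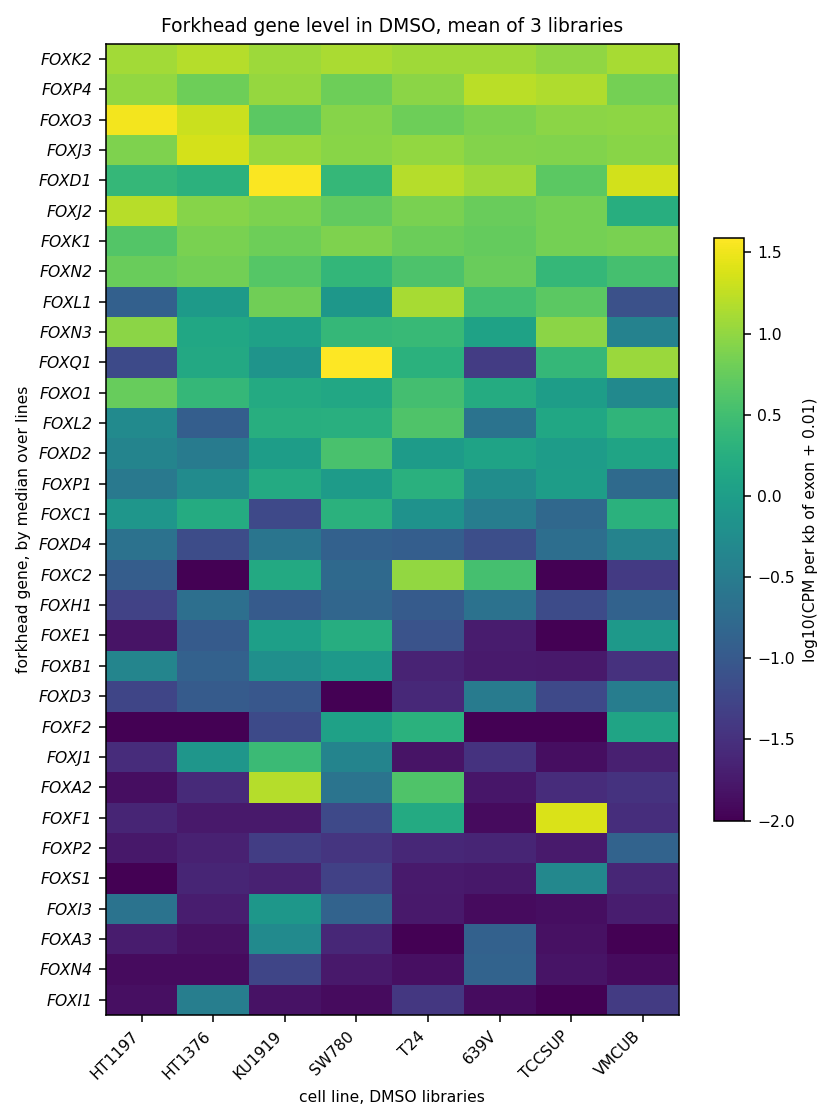
Level of each forkhead gene with DMSO, in each line, as colour: log10 of CPM per kilobase of exon + 0.01, mean of 3 libraries, genes in order of their median over lines. FOXK2 lies between 9.92 and 15.4 CPM per kb in every line, while FOXF1 runs from 0.00254 to 24.1, FOXA2 from 0.00373 to 15.4 and FOXQ1 from 0.0331 to 38.8.

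Genes that act with the forkhead factors were described from lists, whose counts in the fit over lines stand against 7.31% of all genes called higher there. Of 17 other forkhead genes 11 were tested in the fit over lines, and FOXO6 (0.81, adjusted p = 0.0322) and FOXO4 (0.38, adjusted p = 0.0466) rose. Within lines, 2 of 6 tested were called higher and 1 lower in HT1197, 2 of 7 and 0 in HT1376, 1 of 6 and 0 in KU1919, and 3 of 10 and 1 in SW780. T24 had 1 of 7 and 1, 639V 2 of 9 and 2, TCCSUP 1 of 7 and 1, and VMCUB 4 of 6 and 0. The calls of the 32 genes thus do not stand for the whole family. Of 25 tested FOXO target genes 3 rose in the fit over lines, near its 7.31%: TXNIP, an inhibitor of thioredoxin (0.27), SESN3, a sestrin (1.96), and BCL6, a repressor (0.20). Within lines these targets varied, with 18 of 25 higher and 3 lower in SW780, where 30.8% and 30.3% of all genes were called, and 2 of 24 higher and 4 lower in KU1919, where 9.3% and 2.4% were. The lines thus differed in their background of calls as well. Of 17 tested cilium genes 2 rose, also near the share of all genes: TPPP3 (0.96) and CCDC40 (0.60). Of 13 tested Hedgehog genes 3 rose, among them the ligand SHH (3.72 ± 0.35, adjusted p = 0.00689) and the co-receptor BOC (1.93). SHH had 8.71 ± 0.266 CPM with CPI-0209 and 0.834 ± 0.0474 CPM with DMSO in SW780 (SD, n = 3 each). None of 7 tested Nodal pathway genes was called by edgeR (1 at an unadjusted p under 0.05, and 1 called by DESeq2), the smallest adjusted p being that of GDF1 (0.0676). None of the genes of these lists was called lower in this fit (FOXO targets had 2 lower at an unadjusted p under 0.05, neighbours 1 and the others 0, and DESeq2 called 1 FOXO target and 1 neighbour lower). SHH alone of the genes named from these lists kept its call whichever line or replicate number was left out. BOC was lost without T24 or 639V (adjusted p = 0.0572 and 0.0521), TPPP3 without HT1376 or replicate 3 (0.0531 and 0.0658), FOXO6 without T24, 639V, TCCSUP or VMCUB (up to 0.0751), CCDC40 without VMCUB, TCCSUP, T24, SW780 or HT1376 (up to 0.0776) and TXNIP without HT1197, HT1376, T24, 639V, TCCSUP or replicate 2 (up to 0.08). SESN3 (up to 0.0909), BCL6 (up to 0.103) and FOXO4 (up to 0.0982) were lost without most single lines. The 11 higher calls of all these lists numbered 2 without T24, 3 without HT1376 or 639V, 4 without TCCSUP, 5 without VMCUB, 6 without replicate 3, and 7 without SW780 or replicate 2.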

How the data were processed

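Gene counts were deposited by the authors as whole numbers, 1 column for each of the 48 libraries. Per the submitters' processing notes STAR 2.7.3a, RSEM 1.3.1 and hg38 were used. RSEM gives estimates, so the counts may have been rounded. The strand setting of the counting step is not named in these sources, so reads of overlapping antisense genes may not be told apart. Identifiers were matched to symbols and to GENCODE 29 for positions and exon lengths. The members and the lists around them were chosen with earlier results of these data known.

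Counts were tested with edgeR 4.0.16 in R 4.3.3 (limma 3.58.1): TMM scaling, filterByExpr, robust quasi-likelihood fits and Benjamini-Hochberg adjustment over all genes tested, threshold 0.05, CPI-0209 over DMSO. Each line had its own fit of 6 libraries. Another fit used 16 sums with line as covariate. The line by treatment terms (7) were tested over 48 libraries, and lines were compared over the 24 DMSO libraries. Printed CPM use TMM scaling over all 48 libraries. The standard error is the log2 fold change divided by the root of the F statistic. The scripts were tested on simulated data first. Counting intervals are 95% and, like floors of 3 counts, cover counting error only.

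Alternatives were RLE factors, library totals, no filter, a replicate block, DESeq2 1.42.0, a fit of all 48 libraries, leaving out each library, line or replicate number, and, added later, FOXF2 and FOXC2 counts divided by their step. Values by library are given for members called the same way in at least 3 lines or in the fit over lines, and for the 3 largest non-overlapping changes of each line with at least 0.5 CPM. FOXB1, FOXD3, FOXH1, FOXJ1, FOXJ3, FOXK2, FOXN2, FOXO3, FOXC1, FOXL2 and FOXD4 fall outside that rule and were described to account for every member. A gene of the lists around the members is not reported here.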

Additional observations from a re-analysis of the deposited data

Results flagged for a closer look

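The change with CPI-0209 differed between the 8 lines for the following 23 forkhead genes, by the edgeR F test of the line by treatment terms over all 48 libraries. The values are p adjusted over all genes tested, and 58.7% of all genes passed the same test.

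Among the mesenchymal and stromal factors the adjusted p was 3.1e-20 for FOXF1, 0.00646 for FOXF2, 6.9e-14 for FOXL1, 8.39e-04 for FOXC2 and 4.55e-15 for FOXD1. FOXF1 fell in TCCSUP and rose in 4 other lines. FOXL1 fell in 639V and rose in 4 others. FOXD1 fell in KU1919 and VMCUB and rose in 4 others.

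Among the factors of endoderm, placodes and other embryonic tissues it was 1.09e-15 for FOXA2, 3.53e-05 for FOXA3, 2.63e-04 for FOXI1, 1.63e-04 for FOXI3, 4.68e-08 for FOXE1, 3.07e-07 for FOXQ1, 0.0149 for FOXD3 and 0.0211 for FOXN4. FOXI1 could be tested within 2 lines only, with log2 fold changes of 3.57 and 3.75, so its value depends on lines with few counts. FOXA3 and FOXI3 could be tested within 4 lines each, FOXN4 within 3 and FOXD3 within 5, so lines with few counts enter their values too. FOXQ1 rose in each of the 7 lines where it could be tested within the line, by a log2 fold change of 0.50 in SW780 to 2.13 in 639V. Whether the size differed among these 7 lines alone was not tested. In 639V FOXQ1 passed the filter within the line only through the CPI-0209 libraries. HT1197 was too low for a test within the line but was part of the F test.

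Among the widely expressed factors it was 1.6e-08 for FOXO1, 1.26e-10 for FOXP1, 0.029 for FOXP4, 1.54e-04 for FOXN3, 0.00113 for FOXN2, 0.0113 for FOXJ2, 0.0373 for FOXJ3 and 0.0124 for FOXK1. It was 6.89e-05 for FOXJ1, the cilium factor, and 0.0255 for FOXP2. FOXP1 fell in KU1919 and rose in 6 lines, and FOXK1 fell in TCCSUP and rose in 3.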

How the results depend on the processing

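Of 98 calls of a forkhead gene in a line, 67 passed under every alternative run and 0 reversed; 28 were lost on leaving out 1 library, 17 in the fit of all 48 libraries, 8 with DESeq2, 3 without a filter, 3 with library totals and 1 with RLE factors. The cause of the changes below was not tested. In the fit of all 48 libraries the counts were 3 higher and 0 lower in HT1197, 1 lower in HT1376, 4 lower in KU1919, 0 lower in SW780, and 6 higher and 2 lower in T24. With DESeq2 they were 4 higher and 1 lower in HT1197, 1 lower in HT1376, 11 higher over lines, and 25 higher and 2 lower in the lists. Lower calls numbered 1 in HT1376 without a filter, 1 in HT1376 and 2 in SW780 with RLE factors, and 0 in HT1197 and SW780 with library totals.

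Leaving out 1 library gave 4 to 6 higher and 0 to 2 lower calls in HT1197, 0 to 2 lower in HT1376, 5 to 11 higher and 0 to 5 lower in KU1919, 0 to 1 lower in SW780, 3 to 5 higher and 0 to 1 lower in T24, 1 to 2 lower in 639V, and 4 to 12 higher and 1 to 2 lower in VMCUB. Leaving out 1 line or replicate number gave 3 to 6 higher forkhead genes, and 2 to 11 higher and 0 to 1 lower list genes, over lines. Genes whose response differed between lines numbered 14 to 21 without 1 replicate number.

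The replicate numbers did not pair the libraries: deviations of same-numbered libraries correlated at -0.208 to 0.135. With the replicate block 10 of the 98 calls were lost, 4 were higher in HT1197, 1 was lower in KU1919, and 17 genes differed between lines. The 61 tests that failed the count filter could not be assessed at this depth; whether more reads would allow them was not tested.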
